A study of Mus musculus with 25 samples.

Results

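The genes described here are the nuclear genes for the subunits of the mitochondrial respiratory chain and of ATP synthase, measured by RNA-seq in pituitary tissue, tumors included, of sh*Rb* mice. They were chosen by symbol alone: names beginning Nduf followed by a, b, c, s or v and a digit, names beginning Uqcr or Atp5, names beginning Cox4 to Cox8, and Cyc1, Cycs, Sdha, Sdhb, Sdhc and Sdhd. This gave 83 of the 15768 genes in the 2 expression tables, with 82 in the long-term and 78 in the short-term experiment and 77 in both. By name, 37 belong to complex I, 4 to complex II, 9 to complex III, 1 is cytochrome c, 15 belong to complex IV and 17 to complex V. The long-term table does not list Ndufs5, and the short-term table does not list Ndufa1, Ndufb11, Cox7b, Cox6a2 and Cox7a1. The names fit the label with few exceptions. Atp5s and Atp5sl carry the Atp5 name without being subunits proper, Ndufa4 is now counted as a complex IV subunit, and Cox7a2l is a factor of supercomplexes. The subunits encoded by mitochondrial DNA are in neither table, so only the nuclear part of each complex is described.

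All mice carried Rosa26-rtTA and the Col1a1 shRb5-4 transgene, which came from 1 embryonic stem cell clone and 1 hairpin. Doxycycline (dox) in the drinking water of adult mice switched on a GFP-linked hairpin against *Rb*, and the Rosa26 promoter drives the activator in many tissues, not in the pituitary alone. In the long-term experiment (poly(A) libraries, 12 mice) tissue was taken after 6 weeks of dox (6w+dox, n = 3, all female), after 12 weeks of dox (12w+dox, n = 4, replicates 1 and 2 female) or after 6 weeks with and 6 weeks without dox (12w-res, in which Rb is restored, n = 5, replicates 1 and 2 male). In the short-term experiment (rRNA-depleted libraries, 13 mice) tumors were taken after 16 weeks of dox (16w +dox, n = 3, male) or 1, 3 or 5 days after its removal (1d -dox, n = 4, female; 3d -dox, n = 3, male; 5d -dox, n = 3, female). No mouse without dox was among the samples, and in the short-term experiment sex cannot be told apart from time off dox at 1 and 5 days.

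The respiratory chain passes electrons from NADH (complex I) and succinate (complex II, which is also an enzyme of the citric acid cycle) through complex III and cytochrome c to oxygen at complex IV, and complex V, ATP synthase, uses the resulting proton gradient to make ATP. Each complex except II joins a few catalytic subunits, some of them made inside the mitochondrion, with many small accessory subunits made from nuclear genes. Promoters of these nuclear genes are known for sites of NRF1, of ETS factors (GABP) and of YY1, and E2F factors, which RB holds in check, have also been linked to respiratory genes. Several complex IV subunits exist as paralogs that are used in particular tissues, such as Cox6b2 in testis and Cox6a2 and Cox7a1 in heart and skeletal muscle.

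Upstream sequence is shown for 3 genes on which the results turn, because 2 of them were lowest at 12w+dox and Cox6b2 was lowest in 12w-res: Cycs (cytochrome c), Atp5g1 (1 of the 3 genes for the c subunit of the ATP synthase ring) and Cox6b2 (a testis isoform of a complex IV subunit). Each is the part of the RefSeq window before the start that lies outside annotated exons (GRCm38.p6, all on the minus strand, written 5′ to 3′), and capitals mark a match to a motif searched on both strands. Cycs is from chr6:50566570-50566642 with an NRF1 match, Atp5g1 from chr11:96075695-96075881 with an E2F match, and Cox6b2 from chr7:4753095-4753225 with no match.
Cycs: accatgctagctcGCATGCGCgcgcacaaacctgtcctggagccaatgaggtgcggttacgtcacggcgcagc
Atp5g1: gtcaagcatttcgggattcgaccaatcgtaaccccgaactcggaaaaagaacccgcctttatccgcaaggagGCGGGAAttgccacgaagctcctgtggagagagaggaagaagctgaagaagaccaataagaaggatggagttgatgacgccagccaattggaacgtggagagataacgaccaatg
Cox6b2: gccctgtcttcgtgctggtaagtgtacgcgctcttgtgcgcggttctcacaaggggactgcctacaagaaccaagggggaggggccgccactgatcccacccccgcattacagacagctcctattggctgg
A window of 300 bases (250 before and 50 after the start) was held for 68 of the 83 genes. The NRF1 letters GCATGCGC were in the windows of 11 of them (16.2%, against 3.05% of all 27025 genes with a window). The ETS letters CCGGAAG were in 16 (23.5% against 9.93%), the YY1 letters AAGATGGC in 11 (16.2% against 3.19%) and the E2F letters TTCCCGC in 7 (10.3% against 5.29%). The E2F matches were in Atp5g1, Atp5g2, Atp5j, Atp5j2, Cox5b, Ndufs3 and Sdha. No motif contains another, and a match is a description of the sequence only.

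The libraries had 19066053 to 28968476 reads on genes in the long-term and 9573101 to 13036900 in the short-term experiment. Values are FPM, read counts that the authors scaled with DESeq2 size factors, and they are not on the same scale in the 2 experiments. Rb1 followed the labels: its mean was 3.16 ± 1.70 FPM at 6w+dox (SD, n = 3), 3.21 ± 0.70 at 12w+dox (n = 4) and 18.2 ± 1.66 in 12w-res (n = 5). In the short-term experiment GFP fell from 1247 ± 192 FPM (16w +dox, n = 3) to 11.7 ± 3.08 (5d -dox, n = 3), whereas Rb1, at group means of 4.19 to 5.12 FPM, passed no threshold. Cell type markers differed between the long-term groups. Prl, which marks lactotrophs, was at 9172 to 11704 FPM at 6w+dox, 214 to 4940 at 12w+dox and 5659 to 11697 in 12w-res. Pomc, the hormone gene of melanotrophs and corticotrophs, took 12.9% to 43.2% of the reads of a long-term library. Its share was 39.1% or more in each 12w-res mouse. The largest Pomc share of any 6w+dox mouse was 32.2%, and no 12w+dox mouse exceeded 23.0%. The 5 melanotroph and corticotroph markers, Pomc among them, did not move alike. Of them 1 rose and 1 fell at 12w+dox against 6w+dox, and 2 rose and 1 fell in 12w-res against 12w+dox. At 12w+dox against 6w+dox both somatotroph markers and all 4 neural lobe markers fell, as did 2 of 5 endothelial and 2 of 5 fibroblast markers. In 12w-res against 12w+dox all 5 endothelial, all 5 fibroblast and all 6 macrophage markers rose. Their part in the subunit levels was not tested. In such bulk samples fewer cells of a type and less RNA per cell cannot be told apart.

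All listed subunit genes passed the filter on low reads (10 reads or more in over 50% of mice in 1 condition). The levels ranged widely. Per kilobase of the longest transcript, the highest were Atp5e at 354 FPM per kb, Cox8a at 344, Cox6a1 at 338, Cox4i1 at 301 and Atp5b at 281, all subunits of complexes IV and V. The lowest were the tissue-restricted paralogs Cox7a1 and Cox6a2, both at 1.38 FPM per kb, then Cox4i2 at 4.50 and Ndufa4l2 at 5.08. These levels are means over the 12 long-term mice and depend on which transcript gives the length.

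The comparison of 12w+dox with 6w+dox asks how the tissue changed as Rb stayed low and tumors grew. The 12w+dox mice had also been on dox for longer, and no mouse without dox was among the samples. Effects of time on dox therefore cannot be told apart from those of low Rb and tumor growth. Subunit genes of every complex were lower at 12w+dox: 49 of 82 fell (adjusted p under 0.05, limma on log2(FPM + 0.5), Benjamini-Hochberg over 15315 genes), and 0 rose. Over all genes 12.0% were called lower and 10.4% higher. The median log2 fold change of the 82 genes was -0.74, against -0.01 for all genes, and 73 of the 82 were below 0. A fall of more than 1 on the log2 scale was called for 15 of them, where 4.04% of all genes were called lower and 3.15% higher by that rule.

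**Figure D1:**
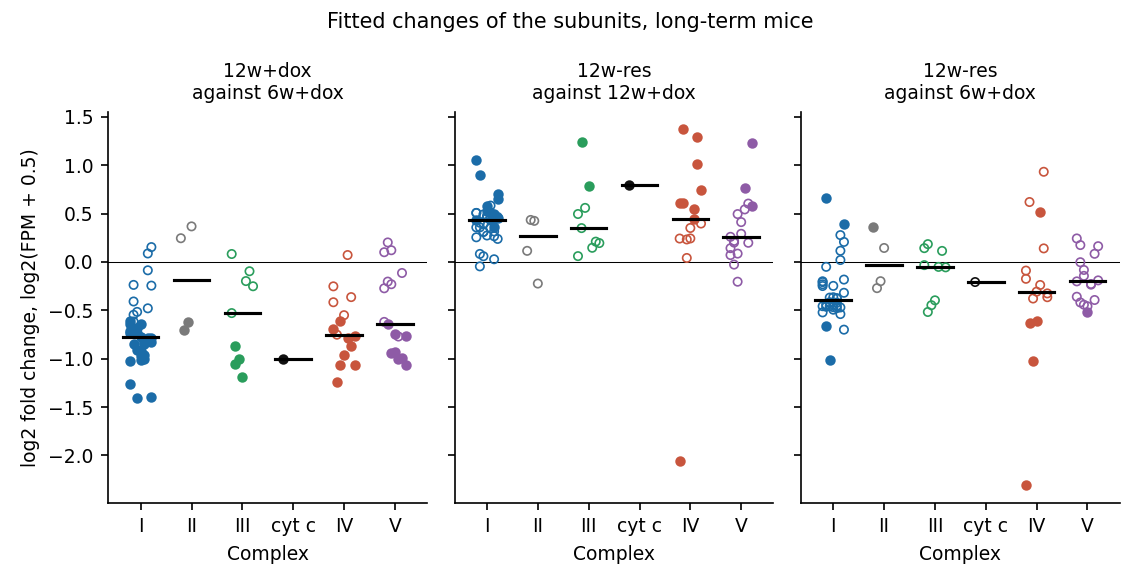
Log2 fold change (vertical axis) of each of the 82 subunit genes in the 3 long-term comparisons, grouped by complex. Each point is a gene, filled where its adjusted p was under 0.05 and open where not, and the black lines are medians; at 12w+dox against 6w+dox most genes of complexes I, III, IV and V lie below 0, with a median of -0.78 for complex I.

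In complex I, the entry point for electrons from NADH, 25 of 36 genes fell, with a median of -0.78. The largest falls were in the accessory subunits Ndufa5 (-1.41, SE 0.30, adjusted p = 0.00623 by limma), Ndufa3 (-1.40, SE 0.28) and Ndufa1 (-1.26, SE 0.32). Ndufb7, Ndufc1 and Ndufb4, also accessory, fell by 1.03, 1.02 and 1.0. Among the 29 genes outside the catalytic core, which are accessory subunits apart from Ndufa4 and its paralog Ndufa4l2, 21 fell, with a median of -0.79, and all 29 were below 0. Among the 7 nuclear catalytic core subunits 4 fell (Ndufs3, Ndufs7, Ndufs8 and Ndufv2), with a median of -0.64. Ndufs1, at -0.09, and Ndufv1, which carries the NADH-binding site, at 0.09, did not pass the test. Whether core and other genes differed was not tested.

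Ndufa5 had 84.7, 73.4 and 26.0 FPM in the 6w+dox mice, 19.1, 21.6, 24.3 and 16.6 in the 12w+dox mice, and 34.1, 23.8, 23.4, 28.4 and 25.3 in the 12w-res mice. Every 6w+dox mouse was above every 12w+dox mouse, but the third 6w+dox mouse was close to them and far from the other two. The 6w+dox mice were spread in the same way in Cox6c (143, 142 and 70.7 FPM) and Uqcrb (106, 103 and 45.7).

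Complex II, the smallest, split. Sdhb, the iron-sulfur subunit, fell by 0.71 (adjusted p = 0.0233 by limma) and Sdhc, a membrane anchor, by 0.62 (adjusted p = 0.0315). Sdha, the flavoprotein that oxidizes succinate, was at 0.25 (adjusted p = 0.119) and the other anchor, Sdhd, at 0.37 (adjusted p = 0.171). Sdha had 162, 168 and 165 FPM at 6w+dox, 195, 209, 173 and 208 at 12w+dox, and 227, 233, 193, 211 and 198 in 12w-res. All 12w+dox mice were above all 6w+dox mice in Sdha, the opposite order to Ndufa5.

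In complex III 4 of 9 genes fell, all of them small subunits: Uqcrb (-1.19, SE 0.23), Uqcrq (-1.05, SE 0.24), Uqcr11 (-1.01) and Uqcr10 (-0.87). The larger proteins of the complex did not pass the test. The small subunit Uqcrh, at -0.53 (adjusted p = 0.133), did not pass either. Cyc1, cytochrome c1, was at 0.08 (adjusted p = 0.699), the Rieske protein gene Uqcrfs1 at -0.25, and the core proteins Uqcrc1 and Uqcrc2 at -0.20 and -0.10. Uqcrq had 136, 128 and 68.3 FPM at 6w+dox, 42.2, 55.7, 72.9 and 38.7 at 12w+dox, and 145, 111, 110.1, 136 and 105 in 12w-res. The third 6w+dox mouse overlapped the 12w+dox mice, and the 12w-res mice were all above all 12w+dox mice.

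Cycs, the electron carrier between complexes III and IV and a trigger of apoptosis when it leaves the mitochondrion, fell by 1.0 (SE 0.19, adjusted p = 0.00328). It had 84.3, 84.7 and 45.6 FPM at 6w+dox, 31.3, 35.2, 40.0 and 30.5 at 12w+dox, and 57.4, 51.8, 58.9, 71.4 and 59.8 in 12w-res. The 12w+dox mice lay below both other groups with no overlap.

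In complex IV, which reduces oxygen, 9 of 15 genes fell. The largest falls were in Cox6c (-1.24, SE 0.22), Cox7c (-1.07) and Cox7a1 (-1.07, SE 0.36, adjusted p = 0.0465), the last at 2 to 48 reads a library and not called by edgeR or DESeq2. The widely expressed paralogs Cox6a1 (-0.79), Cox6b1 (-0.76) and Cox8a (-0.70) fell, while Cox4i1 (-0.42, adjusted p = 0.248) and Cox7a2 (-0.55, adjusted p = 0.0506) did not pass. Of the restricted paralogs, Cox6b2 was at -0.25 (adjusted p = 0.645), Cox4i2 at -0.75 (adjusted p = 0.068) and Cox6a2 at -0.36 (adjusted p = 0.673).

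In complex V 8 of 17 genes fell, led by Atp5g1 (-1.07, SE 0.17, adjusted p = 0.00112) and Atp5j2 (-1.0), both of the membrane part of the enzyme. Atp5g1 had 113, 115 and 77.6 FPM at 6w+dox, 55.1, 48.0, 49.7 and 38.9 at 12w+dox, and 143, 106, 92.8, 117 and 109 in 12w-res. It separated the 12w+dox mice from all others. The 3 genes for the identical c subunit did not move alike in size: Atp5g3 fell by 0.64 (adjusted p = 0.0149) and Atp5g2 was at -0.27 (adjusted p = 0.265). The genes for the catalytic head, Atp5a1 (0.10) and Atp5b (0.20), did not pass the test.

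**Figure D2:**
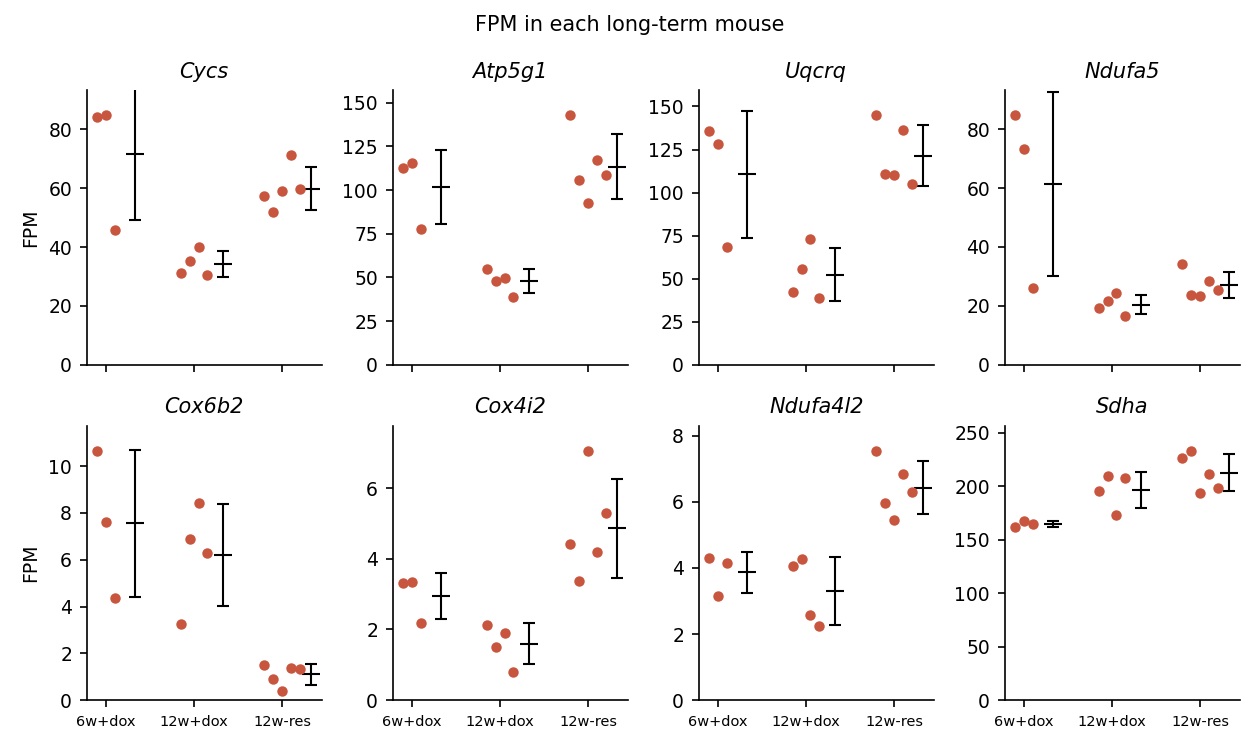
FPM (vertical axis) of 8 subunit genes in each mouse of the 3 long-term groups. Points are mice and bars are the mean ± SD; Cycs and Atp5g1 are lowest at 12w+dox, Cox6b2 is lowest in 12w-res, Cox4i2 and Ndufa4l2 are highest in 12w-res, and Sdha is lowest at 6w+dox.

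The number of falls rested on which mice were in the comparison. The median deviation of the 82 genes from their own mean over the 12 mice was 0.67, 0.59 and -0.25 (log2) in the 6w+dox mice and -0.52, -0.17, -0.11 and -0.58 in the 12w+dox mice, so that the third 6w+dox mouse lay within the 12w+dox range. Without 6w+dox replicate 1, 2 or 3 in turn, 20, 12 or 65 genes fell, and without 12w+dox replicate 4, 29 did. The count of falls of more than 1 went from 15 to 4, 3 or 39 without 6w+dox replicate 1, 2 or 3, and to 7 or 6 without 12w+dox replicate 1 or 4. The direction of the median did not depend on 1 mouse, at -1.0 to -0.55. With female mice alone (3 against 2) 5 genes fell, but the median was -0.72. With sex as a covariate the median was -0.75. With scaling by total reads the median of all genes was 0.29, and 25 subunit genes fell and 7 rose. Relative to all genes the subunit median was then still -0.70, near the -0.73 of the deposited scaling.

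**Figure D3:**
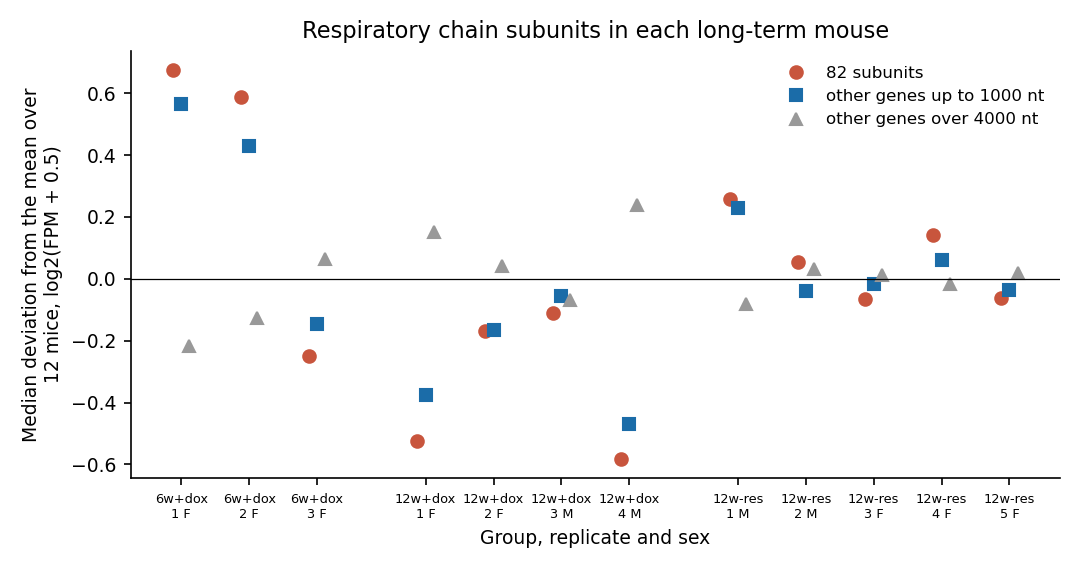
Median deviation from the genes' own means over the 12 long-term mice (log2(FPM + 0.5), vertical axis) in each mouse (horizontal axis: group, replicate and sex), for the 82 subunit genes (circles), other genes up to 1000 nt (squares) and other genes over 4000 nt (triangles). For the subunit genes 6w+dox replicates 1 and 2 stand at 0.67 and 0.59 and replicate 3 at -0.25, below all 12w-res mice and within the 12w+dox range, and the squares follow the circles.

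Transcript length moved with the fall, also outside the chain. Genes that are not subunit genes had a median log2 fold change of -0.67 for transcripts up to 700 nt (173 genes), -0.53 for 700 to 1000 nt (448), -0.32 for 1000 to 1500 nt (1178), -0.04 for 1500 to 4000 nt (7273) and 0.17 above 4000 nt (4991). The subunit genes had -0.79 (25 genes), -0.79 (21), -0.71 (13), -0.20 (21) and -0.87 (2) in the same classes, and across the 82 genes log2 length and log2 fold change had a Pearson r of 0.46, a description over genes that share libraries. Other genes up to 1000 nt also set 6w+dox replicate 3 apart, at -0.15 beside 0.56 and 0.43 for replicates 1 and 2. With the length trend over all genes removed, 20 subunit genes fell and 5 rose and the median was -0.14, where 11.2% of all genes with a length fell and 10.6% rose. With the shortest annotated transcript as the length, which matters for Atp5g1 (596 against 4715 nt) and Ndufb2 (455 against 4371 nt), 23 fell and 2 rose and the median was -0.27. Cycs was then at -1.05, Uqcrq at -0.88, Ndufa5 at -0.72 and Atp5g1 at -0.57, and with the longest transcripts at -1.02, -0.81, -0.90 and -1.22. The part of RNA quality or library preparation in this was not tested.

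**Figure D4:**
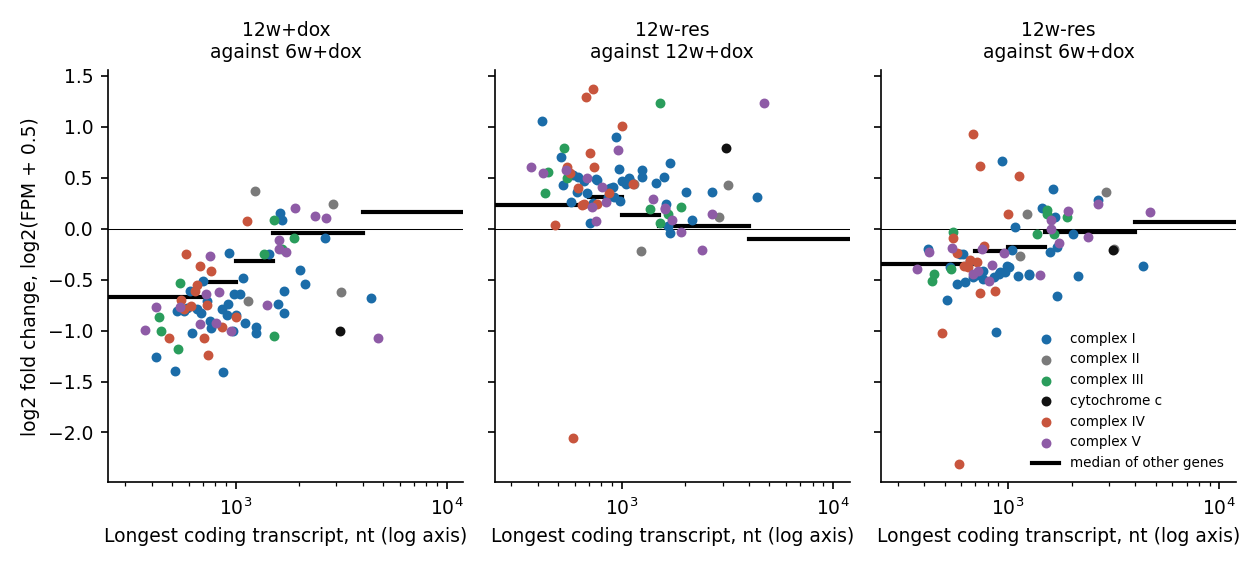
Log2 fold change (vertical axis) of each subunit gene (points, coloured by complex) against the length of its longest coding transcript (horizontal log axis, nt) in the 3 long-term comparisons, with the medians of all other genes in 5 length classes as black lines. At 12w+dox against 6w+dox the lines run from -0.67 in the shortest class to 0.17 in the longest, and most points lie below the line of their class.

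The comparison of 12w-res with 12w+dox asks how tissue after 6 weeks off dox, with Rb restored, differed from tissue under continued knock-down. Dox and the sucrose in its water were withdrawn together with the knock-down. Their effects therefore cannot be told apart from that of Rb. Of the 82 subunit genes 25 rose and 1, Cox6b2, fell, where 19.4% of all genes were called higher and 18.3% lower. The share of subunit genes that rose, 25 of 82, was above that of all genes, and the median was 0.41 against a median close to 0 for all genes, with 77 of 82 above 0. A rise of more than 1 was called for 6 (Cox4i2, Cox6a2, Uqcrq, Atp5g1, Ndufa1 and Cox7b) and such a fall for 1, with 6.24% and 5.04% of all genes. The 12w+dox mice serve in this comparison and in the one before, so a gene that is low in them goes down in the first and up in the second.

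By complex, 11 of 36 genes of complex I rose, 0 of 4 of complex II, 2 of 9 of complex III, cytochrome c, 8 of 15 of complex IV and 3 of 17 of complex V. Atp5g1 rose by 1.23 (SE 0.15, adjusted p = 3.11e-05) and Uqcrq by 1.24 (SE 0.21, adjusted p = 0.000537), and their 12w-res means of 113 and 121 FPM were near the 6w+dox means of 102 and 111. Cycs rose by 0.80 (SE 0.17, adjusted p = 0.00227). Ndufa1 (1.06, SE 0.28) and Cox7b (1.01, SE 0.23, adjusted p = 0.00386), both on the X chromosome, rose as well. Ndufa1 had 61.0, 48.8, 27.9, 52.8 and 31.1 FPM in the 12w-res mice and 17.3, 22.4, 25.9 and 16.2 in the 12w+dox mice, so the groups did not overlap although 2 of the 12w-res mice were close. Ndufa5, the gene with the largest fall before, was at 0.40 (adjusted p = 0.261).

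Cox6b2 was the one subunit gene called lower in 12w-res than at 12w+dox. It had 10.7, 7.62 and 4.39 FPM at 6w+dox, 3.25, 6.91, 8.41 and 6.28 at 12w+dox, and 1.51, 0.898, 0.410, 1.36 and 1.33 in 12w-res. Every 12w-res mouse was below every dox-treated mouse. The fold change was -2.05 (SE 0.31, adjusted p = 0.000196) against 12w+dox and -2.31 (SE 0.34, adjusted p = 0.000176) against 6w+dox. It stayed past the threshold with each mouse left out in turn, at -2.31 to -1.86 against 12w+dox. Its widely expressed paralog Cox6b1, which fills the same place in complex IV in most tissues, was at 0.40 (adjusted p = 0.115) against 12w+dox, with 47.1 to 65.7 FPM at 12w+dox and 64.7 to 83.2 in 12w-res.

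Cox4i2 and Ndufa4l2, both paralogs known to respond to low oxygen, were highest in 12w-res. Cox4i2 had 3.32, 3.34 and 2.19 FPM at 6w+dox, 2.13, 1.52, 1.91 and 0.810 at 12w+dox, and 4.42, 3.38, 7.05, 4.19 and 5.30 in 12w-res, a rise of 1.37 (SE 0.25, adjusted p = 0.000722) over 12w+dox. Ndufa4l2 had 4.31, 3.16 and 4.14, then 4.05, 4.28, 2.59 and 2.23, then 7.54, 5.97, 5.46, 6.85 and 6.30 FPM, a rise of 0.90 (SE 0.20, adjusted p = 0.00282). In both genes every 12w-res mouse was above every mouse of the other groups. For Cox4i2 the margin over 6w+dox was narrow, 3.38 against 3.34 FPM. Ndufa4l2 was also called higher in 12w-res than at 6w+dox, and Cox4i2 was not. Against 12w+dox their widely expressed partners Cox4i1 (0.24, adjusted p = 0.408) and Ndufa4 (0.36, adjusted p = 0.0989) did not pass. Pericytes and smooth muscle of vessels are known to express both paralogs. The summed level of 11 markers of those cells, a list added after values were seen, was 196 to 248 FPM at 6w+dox, 143 to 339 at 12w+dox and 573 to 686 in 12w-res, and all 11 rose over 12w+dox. The part of these cells in the 2 paralogs was not tested.

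Cox6a2, a muscle isoform, passed narrowly with a rise of 1.30 (SE 0.49, adjusted p = 0.0494). It had 0, 0.525, 0.524 and 0.0559 FPM at 12w+dox and 4.26, 1.58, 1.14, 0.0590 and 1.60 in 12w-res, between 0 and 82 reads a library, and the groups overlapped. The summed skeletal muscle markers, of which Ckm, Tnnt3 and Tnni2 are not listed, were at 1.45 to 2.0 FPM at 12w+dox and 2.85 to 4.23 in 12w-res. Of the 4 listed, Acta1 and Myl1 rose, and Mb (0.29) and Mylpf (-0.24) did not pass; the part of such tissue was not tested. The other muscle isoform, Cox7a1, was at 0.04.

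The size of this rise depended on scaling and on mice. With scaling by total reads the median of all genes was -0.61, and 3 subunit genes rose and 28 fell. Relative to all genes the subunit median was then 0.37, near the 0.41 of the deposited scaling. Pomc took a larger share of the reads in 12w-res, and its part in these counts was not tested. Without 12w+dox replicate 4 or 1, 10 or 12 genes rose, without 12w-res replicate 4 or 1, 14 or 15, and without 6w+dox replicate 3, which enters only through the spread, 47. Rises of more than 1 went from 6 to 3 without 12w+dox replicate 4 and without 12w-res replicate 1. With the trend of the longest transcript length removed 20 rose and 3 fell (21.5% and 21.1% of all genes), and the median went from 0.41 to 0.14, or to 0.19 with the shortest transcript. In the 2 classes of shortest transcripts, 36% (up to 700 nt) and 23.8% (700 to 1000 nt) of the subunit genes rose, and 31.2% and 28.8% of other genes did. With female mice alone 4 subunit genes rose, and the median was 0.32.

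The comparison of 12w-res with 6w+dox asks how far the tissue after 6 weeks off dox differed from the tissue at the time of dox removal. Few subunit genes were called: 4 rose and 7 fell of 82, where 17% and 16.8% of all genes were called. The share of subunit genes called was thus below that of all genes in both directions. The median deviation of these genes ran from -0.25 to 0.67 over the 3 6w+dox mice. With that spread, few calls do not show that the groups were alike. The median was -0.26, against -0.02 for all genes. Falls of more than 1 were called for 3 (Cox6b2, Cox7a1 and Ndufa5) and such rises for 0, with 5.82% of all genes lower and 5.81% higher.

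Among those that rose were Ndufa4l2 (0.67, SE 0.22, adjusted p = 0.0284), Sdha (0.36, SE 0.10, adjusted p = 0.0163) and Cox7a2l (0.51, adjusted p = 0.0274). The 7 that fell were Cox6b2, Cox7a1 (-1.03, SE 0.34), Ndufa5 (-1.02, SE 0.29, adjusted p = 0.0156), Ndufs4 (-0.66), Cox6c (-0.63, SE 0.21), Cox5b (-0.61) and Atp5j (-0.51). Cycs (-0.21, adjusted p = 0.411), Atp5g1 (0.16, adjusted p = 0.468) and Uqcrq (0.18, adjusted p = 0.572) did not pass. Sdhb, Sdhc and Sdhd were at -0.27, -0.20 and 0.14.

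These counts turned on single mice most of all. Without 6w+dox replicate 3 there were 51 falls and the median was -0.57, and without replicate 1 or 2 there were 2 or 1. Leaving out 12w-res replicate 1, 2, 3, 4 or 5 gave 12, 2, 3, 3 or 2 falls, and leaving out 12w+dox replicate 2 gave 4. By total reads, with the median of all genes at -0.33, 0 rose and 58 fell. Relative to all genes the subunit median was then -0.26, beside -0.24 with the deposited scaling. With the trend of the longest or shortest transcript length removed the median was -0.05 or -0.10.

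The short-term experiment asks what happened in established tumors in the first days after dox was removed. No subunit gene was called in any of its 4 comparisons by limma or by edgeR, among 78 genes. Over all genes 0.1% were called at 1d, 0.358% at 3d and 0.509% at 5d against 16w +dox, and 0.0143% at 5d against 1d. Before adjustment, p was under 0.05 for 3 genes that were higher and 2 that were lower at 1d, for 1 and 29 at 3d, for 4 and 1 at 5d, and for 0 and 4 at 5d against 1d. Among all 13958 genes those numbers were 946 and 877 at 1d, 1109 and 1214 at 3d, 1005 and 884 at 5d, and 510 and 373 at 5d against 1d. DESeq2 on the recovered reads called 4 lower at 3d (Atp5g3, Cox5b, Ndufa13 and Ndufb7) and 1 higher at 5d (Atp5g2).

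At 3d the subunit genes leaned down by a small amount. The median was -0.19, against 0.01 for all genes, and 71 of 78 were below 0. In 33 of the 78 every 3d mouse was below every 16w mouse, as in 11% of all genes. Cell type markers moved as well: the summed melanotroph and corticotroph markers were at 12469 to 28943 FPM at 3d and 35280 to 38080 at 16w +dox, without overlap, though none of the 5 was called. The gonadotroph hormone gene Lhb rose by 1.91 (adjusted p = 0.0476 by limma), and the part of cell types in the lower subunit levels was not tested. Cox5b, a zinc-binding subunit of complex IV, had 25.0, 25.0 and 25.1 FPM at 16w +dox and 20.2, 20.7 and 19.4 at 3d, a difference of -0.31 (SE 0.07, adjusted p = 0.0711). Ndufa13, a complex I accessory subunit, was at -0.37 and Atp5g3 at -0.33, both with adjusted p = 0.0724. Both groups were male. By total reads, where the median of all genes was 0.14, the subunit median was -0.05, and relative to all genes it was -0.19.

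**Figure D5:**
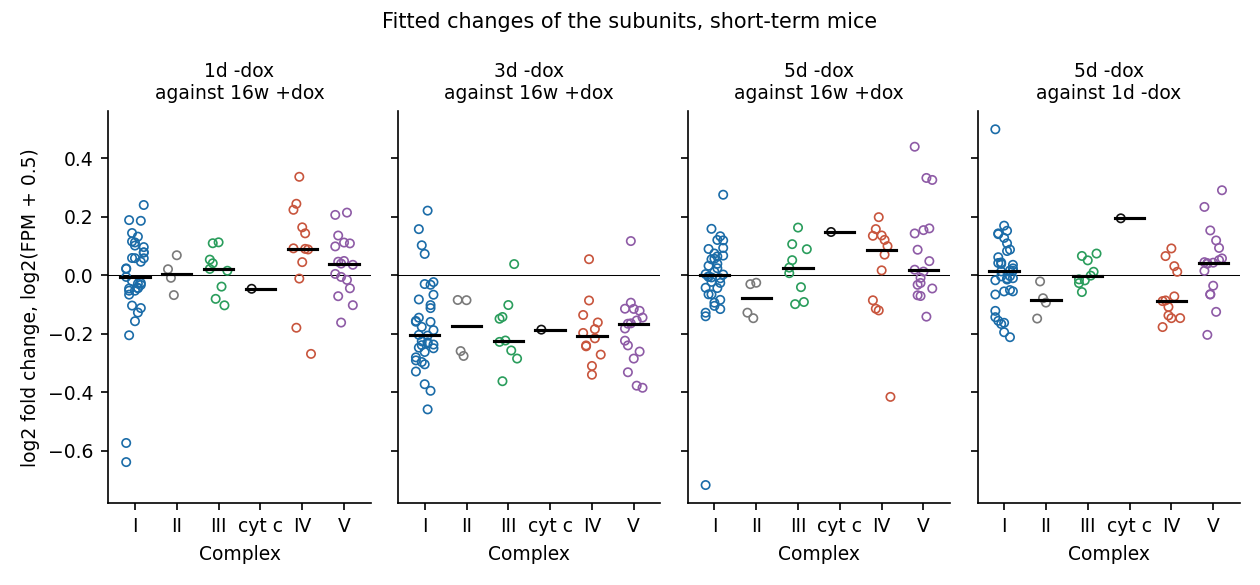
Log2 fold change (vertical axis) of each of the 78 subunit genes in the short-term comparisons, grouped by complex. All points are open because no adjusted p was under 0.05, the black lines are medians, and at 3d 71 of 78 points lie below 0.

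At the other times the medians were near 0: 0.03 at 1d with 45 of 78 above 0, 0.01 at 5d, and closest to 0 at 5d against 1d. The smallest p at 1d belonged to Cox7a2 (0.24, SE 0.07, adjusted p = 0.169), Ndufv3 (0.24, adjusted p = 0.204) and Ndufa4l2 (-0.57, adjusted p = 0.250). At 5d it belonged to Atp5g2 (0.44, SE 0.13, adjusted p = 0.140), Ndufv3 (0.27, adjusted p = 0.160) and Ndufa4l2 (-0.72, adjusted p = 0.169), and between 5d and 1d to Cox4i1 (-0.18), Ndufs8 (-0.20) and Sdha (-0.15). Ndufa4l2 was near the limit of counting here, with 3 to 34 reads a library. It had 0.849, 0.802 and 0.383 FPM at 16w +dox, 0.0773, 0.580, 0.274 and 0.257 at 1d, 0.456, 0.449 and 0.432 at 3d, and 0.112, 0.286 and 0.225 at 5d. The 1d and 5d mice were female and the 16w +dox mice male. The summed pericyte and smooth muscle markers were at 64.1 to 105 FPM at 16w +dox. They were at 32.2 to 47.7 at 1d, 56.2 to 86.1 at 3d and 29.4 to 44.9 at 5d, and their part in Ndufa4l2 was not tested. Atp5g2 had 9.18, 9.06 and 9.83 FPM at 16w +dox and 11.2, 14.8 and 12.7 at 5d, without overlap. Of the long-term genes, Cycs had 14.6, 15.1 and 15.7 FPM at 16w +dox and 15.3, 15.4 and 20.1 at 5d, and Cox6b2 had 1.15, 0.909 and 0.664 and then 0.645, 0.545 and 0.450. Neither passed the test.

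Other genes that build and feed the chain were counted in the same way. At 12w+dox against 6w+dox, 8 of 41 assembly factors fell and 2 rose (median -0.23). The list drawn up for assembly factors also named Ndufab1, a complex I subunit that the choice by symbol leaves out. Uqcc2, a complex III assembly factor, was at -1.18 and Cox17, the copper chaperone for complex IV, at -1.14. Of 19 citric acid cycle enzymes 4 fell, among them Idh3a (-0.60) and Fh1 (-0.58), and 1 rose (median -0.09). Of 21 regulators of mitochondrial biogenesis 0 fell and 2 rose: Ppargc1a, the coactivator PGC-1α, by 0.93 and Gabpb2 by 0.66. In this comparison 12.0% of all genes were called lower and 10.4% higher, so the share of regulators that rose was near that of all genes.

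Ribosomal protein genes, whose transcripts are also short and abundant, were lower as well. Of 77 mitochondrial ribosomal proteins 24 fell and 0 rose (median -0.40), and of 78 cytosolic ones 40 fell and 0 rose (median -0.67). In 12w-res against 12w+dox, 67 of the 78 cytosolic ribosomal proteins rose (median 0.75) and 11 of 77 mitochondrial ones rose and 2 fell (median 0.22). The shares over all genes were 19.4% higher and 18.3% lower. In that comparison 9 of 41 assembly factors rose and 2 fell, 7 of 19 citric acid cycle enzymes rose and 1 fell, with Pdha1 at 0.60, and 2 of 21 regulators rose and 3 fell, with Tfb2m at 0.74 and Sirt1 at -0.72.

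In 12w-res against 6w+dox the counts were 3 higher and 3 lower for assembly factors, with Cox20 at -1.19 and Tmem126b at 0.91, and 3 and 1 for citric acid cycle enzymes, with Pdha1 at 1.00 and Idh2 at -0.69. They were 2 and 6 for the regulators, 2 and 7 for mitochondrial ribosomal proteins, and 4 and 0 for cytosolic ones. Over all genes 17% were called higher and 16.8% lower in 12w-res against 6w+dox. With the list sizes given above, the share of regulators called lower was above that of all genes. The other shares were below that of all genes in the same direction, and no difference between the lists and all genes was tested. In the short-term comparisons the one call in these lists was Yy1, a regulator, at 0.46 at 5d against 16w +dox (adjusted p = 0.0279).

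Among the subunit genes with a promoter window in the long-term table (67), 45 fell at 12w+dox with a median of -0.76. Of the 7 with the E2F letters 5 fell, with a median of -0.93, and of the 11 with the NRF1 letters 9 fell, with a median of -0.77. Of the 16 with the ETS letters 13 fell (median -0.78), and of the 11 with the YY1 letters 6 fell (median -0.64). In 12w-res against 12w+dox, 3 of the 7 with the E2F letters rose, with a median of 0.41, as did 18 of the 67, with the same median. With the NRF1, ETS and YY1 letters 4 of 11, 4 of 16 and 4 of 11 rose, with medians of 0.53, 0.50 and 0.41. Over all genes 12.0% were called lower at 12w+dox against 6w+dox, and 19.4% higher in 12w-res against 12w+dox. The trend with transcript length was not removed from these counts and medians. No difference between these groups of promoters was tested.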

How the data were processed

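RNA-seq of pituitary tissue from 25 sh*Rb* mice, 12 in the long-term and 13 in the short-term experiment, was analysed from 2 tables. The authors mapped reads to mm10 with STAR, counted them per RefSeq gene, dropped genes with low counts and deposited 1 signal for each gene and mouse, called FPM and scaled by DESeq2 size factors. The counting tool and its use of strand are not given in the sources used here. Scaling by size factors holds the typical gene steady, so a change shared by most genes would not show. Of the values, 100% were whole multiples of 1 read within 0.1 of a read. Of the short-term lines, 4 name no gene and hold 68.8% to 75.0% of a library, and they and 2 unnamed long-term lines were left out.

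Mice were grouped, numbered and sexed from the labels. Genes with 10 reads or more in over 50% of mice in 1 condition were kept (15315 and 13958), and log2(FPM + 0.5) was fitted with limma 3.58.1 (trended prior, R 4.3.3), all groups of an experiment in 1 fit, with Benjamini-Hochberg adjustment over all genes tested. Calls are at adjusted p under 0.05, counted again with a log2 fold change over 1 in size. All errors written SE come from this fit. Alternatives were edgeR 4.0.16 and DESeq2 1.42.0 on recovered reads, pseudocounts 0.1 and 1, other filters and scalings, the 2 groups alone, a replicate block, sex as a covariate, female mice alone and each mouse left out. Removal of trends with transcript length or GC content was added after the data were seen. Fits were tested on simulated data with 200 changed genes.

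Genes are named where called with a log2 fold change over 1, where largest in a complex, where p was smallest in a short-term comparison, or as paralogs, Sdh genes, Cyc1 and Cycs. Further subunit genes named beside them were picked with their values known. The genes and lists were chosen with earlier results of these data known, so no test over the list was made. Names, coordinates and promoters are from RefSeq GRCm38.p6 (83 of 83 symbols matched), and transcript lengths from GENCODE vM21. The single values of 1 gene are not reported here. Transcripts of mitochondrial DNA and proteins were not analysed here. Mice of a group are separate animals, and no 2 libraries of a group agree within sampling noise.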

Additional observations from a re-analysis of the deposited data

Results flagged for a closer look

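Among 116 groups of 4 or 5 mice examined, 3 held a value far from the others by Dixon's criterion, which chance flags in about 1 of 20 groups. Cyc1 was at 62.4 FPM in 12w-res replicate 3, and the other 12w-res mice were at 73.3 to 74.8. Ndufb7 was at 68.4 FPM in 12w-res replicate 1, where the others were at 49.2 to 54.3. Atp5g3 was at 16.1 FPM in 1d -dox replicate 4, where the others were at 15.2 to 15.3.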

How the results depend on the processing

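At 12w+dox against 6w+dox, the 49 falls became 25 with total reads (and 7 rises), 23 with the 2 groups alone, 20 (and 5 rises) or 23 (and 2 rises) with the trend of the longest or shortest transcript length removed, and 5 in female mice. Falls over 1 went from 15 to 9 with a pseudocount of 1, 2 with total reads or the longest length, 1 with the shortest, and 4 in female mice, and the median to -0.41, -0.14 and -0.27 with total reads, longest and shortest length. With each mouse left out, falls ran from 12 to 65 and rises stayed at 0, falls over 1 ran from 3 to 39, and the median from -1.0 to -0.55. With the longest length removed Cox8a turned to 0.014 and Ndufa4 to 0.060; the cause of these changes was not tested.

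In 12w-res against 12w+dox, the 25 rises became 3 with total reads, 47 with the 2 groups alone and 4 in female mice. The 1 fall became 28 with total reads, 3 with either length, and 0 (also over 1) with 10 reads in every mouse, where Cox6b2 is not tested. Rises over 1 went from 6 to 0 with total reads, 3 and 2 with the lengths and 3 in female mice, and the median from 0.41 to 0.14 and 0.19 with the longest and shortest length and to -0.24 with total reads, where Cox6a1 was at -0.11, Cox6c at -0.046, Cox7a2l at -0.21, Cox8a at -0.049 and Ndufc1 at -0.063. With each mouse left out, rises ran from 10 to 47, falls stayed at 1, rises over 1 ran from 3 to 6, and the median from 0.34 to 0.48.

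In 12w-res against 6w+dox, the 4 rises became 0 with total reads and in female mice and 7 with either length. The 7 falls became 58 with total reads, 15 by DESeq2, 3 with the 2 groups alone, 4 with the longest length and 3 in female mice. The median in female mice was -0.37. Falls over 1 went from 3 to 1 with 10 reads in every mouse or either length, and the median from -0.26 to -0.05 and -0.10 with the longest and shortest length and to -0.59 with total reads. With each mouse left out, rises ran from 1 to 5, falls from 1 to 51, rises over 1 from 0 to 1, falls over 1 from 1 to 4, and the median from -0.57 to -0.11.

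In the short-term comparisons the calls at 3d became 4 falls by DESeq2 and 1 with the GC trend removed, and at 5d 1 rise by DESeq2. With total reads the medians at 3d, 5d and 5d against 1d were -0.047, -0.066 and -0.073. With each mouse left out calls stayed at 0.

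Same-numbered mice of different groups correlated at -0.21 to 0.24, so the numbers did not pair the mice. The replicate block moved the falls at 12w+dox against 6w+dox from 49 to 28, and in 12w-res against 6w+dox it left 0 rises, 1 fall and 1 fall over 1.

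Groups of 3 to 5 mice, the spread at 6w+dox and the absence of mice without dox limit these results. Genes with few reads, such as Cox6a2 and Cox7a1, are the least precise.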
